A study of Homo sapiens with 12 samples.

Results

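The genes described here act in the unfolded protein response of the endoplasmic reticulum (ER) and in the integrated stress response that shares 1 of its arms. They were the 35 genes of a fixed list, 16 ER chaperones and folding enzymes, 7 genes of ER-associated degradation, 5 sensors and transcription factors of the ER, and 7 genes of the ATF4 branch, and all 35 were found by symbol among the 58302 genes measured. Total RNA was sequenced from 2 cell lines of human pancreatic ductal adenocarcinoma, BxPC-3 and CFPAC-1, and from BxPC-3-GR and CFPAC-1-GR, which came from them by culture in rising concentrations of gemcitabine (GEM), a deoxycytidine analog used against pancreatic cancer. Each of the 4 lines had 3 libraries, 12 in all, and RNA was taken from cells near confluence. The parental lines are labelled sensitive and both are labelled epithelial in morphology. BxPC-3-GR is labelled resistant and mesenchymal, and CFPAC-1-GR resistant and epithelial. There was 1 resistant derivative of each parental line, so that a difference within a pair belongs to those lines. Nothing in the labels says that the 3 libraries of a line came from separate cultures, so p values measure the spread between these libraries.

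Proteins that enter the secretory pathway are folded in the ER by chaperones and disulfide isomerases, and molecules that fail to fold are returned to the cytosol and degraded. When unfolded proteins accumulate, 3 membrane sensors respond. ERN1 (IRE1) splices the XBP1 transcript, ATF6 is cut in the Golgi to release a transcription factor, and EIF2AK3 (PERK) phosphorylates the translation factor eIF2-alpha. Phosphorylated eIF2-alpha slows most translation while favoring that of ATF4, and other eIF2-alpha kinases that sense amino acid lack, heme lack or double-stranded RNA feed the same step, which is the integrated stress response. Much of this control is by splicing, cleavage, phosphorylation and translation, which gene-level RNA values do not show.

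The promoters of these genes carry short elements through which the response was worked out. The ER stress response element (ERSE, read by ATF6 and XBP1 with NF-Y) was searched as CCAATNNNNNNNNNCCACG, ERSE-II as ATTGGNCCACG, the unfolded protein response element (UPRE) as TGACGTGG, and the C/EBP-ATF response element (CARE, read by ATF4) as TGATGNAA, all on both strands in the 250 bases before each RefSeq start site of GRCh38.p14. Promoters were matched for 32 of the 35 genes (not for PDIA3, DERL1 and DERL3), and 13 of the 32 held at least 1 element. ERSE was found in 7 of the 32 (21.9%) and in 25 of all 27305 genes with a promoter (0.0916%). ERSE-II was found in 3 (9.38%) against 18 genes (0.0659%), UPRE in 2 (6.25%) against 213 genes (0.780%), and CARE in 3 (9.38%) against 1061 genes (3.89%). ERSE was first defined in chaperone promoters of this kind, so these shares describe the list and are no test. The sequences below are shown because the genes that carry the same element are compared later. Each is read 5′ to 3′ on the strand of its gene, with the element in capitals.
HSPA5 ERSE, minus strand, chr9:125241380-125241420: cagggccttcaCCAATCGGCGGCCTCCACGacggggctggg
HSP90B1 first ERSE, plus strand, chr12:103930205-103930245: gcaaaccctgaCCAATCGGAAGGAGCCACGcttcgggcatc
CANX ERSE, plus strand, chr5:179698767-179698807: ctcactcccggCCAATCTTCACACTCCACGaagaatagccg
CRELD2 ERSE, plus strand, as reverse complement, chr22:49918543-49918583: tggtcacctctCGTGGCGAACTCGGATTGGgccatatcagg
XBP1 ERSE, minus strand, chr22:28800592-28800632: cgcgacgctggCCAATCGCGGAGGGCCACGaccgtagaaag
SDF2L1 ERSE-II, plus strand, as reverse complement, chr22:21642103-21642135: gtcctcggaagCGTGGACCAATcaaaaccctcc
HERPUD1 ERSE-II, plus strand, chr16:56932014-56932046: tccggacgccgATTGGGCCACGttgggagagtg
ASNS CARE, minus strand, chr7:97872458-97872487: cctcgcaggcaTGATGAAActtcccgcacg
CHAC1 CARE, plus strand, as reverse complement, chr15:40953251-40953280: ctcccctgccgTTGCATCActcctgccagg
The HSPA5 element ended 48 bases before the start site and that of XBP1 34 bases before it. HSP90B1 held a second ERSE and CALR and PDIA6 held 1 each. HYOU1 held 2 copies of ERSE-II, the farther one overlapping its UPRE by 5 bases, TXNDC5 held a UPRE, and HERPUD1 held a CARE beside its ERSE-II. No element searched was found in this window in TRIB3, SESN2, DDIT3, ATF4 or PPP1R15A.

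Values are FPKM, fragments scaled to the length of the gene and the depth of the library, as the authors deposited them. Read back from the spacing of low values, the depth was 12600000 to 25000000 mapped fragments, lowest in CFPAC-1 replicates 2 and 3. Resistant and parental libraries of each pair were compared by limma on log2(FPKM + 1) for genes averaging 1 FPKM or more, a scale that understates the fold change of low genes. A gene passed the test at a Benjamini-Hochberg adjusted p below 0.05 over all genes tested, and was called significantly differentially expressed (SDE) if its absolute log2FC was also above 1. A low gene can stay below that limit because of the scale. In the CFPAC-1 pair EIF2AK3 was at 0.94 and EDEM1 at 0.95, and they were at 1.32 and 1.09 with 0.1 added in place of 1. An exact 2-sided permutation test of 3 libraries against 3 gives no p below 0.10. RRM1, the ribonucleotide reductase subunit that the study follows, was 29.5, 30.2 and 27.6 FPKM in BxPC-3 and 424, 419 and 396 in BxPC-3-GR, and 8.55, 8.53 and 7.14 in CFPAC-1 and 302, 311 and 304 in CFPAC-1-GR. The 7 epithelial markers summed to 838 to 1016 FPKM in the BxPC-3 pair, 2645 to 2920 in the CFPAC-1 libraries and 1162 to 1354 in the resistant ones. The 5 mesenchymal markers summed to 12.4 to 16.6 FPKM in the BxPC-3 pair, parental 12.4 to 15.1 and resistant 14.7 to 16.6. The label mesenchymal of BxPC-3-GR was thus not matched by a high level of these markers. The CFPAC-1 pair, labelled epithelial throughout, had larger sums of the same markers. Its parental libraries ranged from 120 to 155 FPKM, and its resistant libraries lay lower, from 85.2 to 98.5. Markers of fibroblasts, endothelium and acinar cells summed to at most 3.45 FPKM in any library, and those of leukocytes to at most 40.2, in CFPAC-1.

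In CFPAC-1-GR against CFPAC-1 the log2FC of all genes followed the GC content of their exons (Spearman rho -0.777 over 12030 genes), which it did not in BxPC-3-GR against BxPC-3 (rho 0.039 over 11685 genes). For the CFPAC-1 pair a GC-corrected value is therefore also given, from which the part of the log ratio fitted by a spline of GC content and exon length (5 degrees of freedom) was taken out. What produced the trend was not tested. The median log2FC of all genes in the CFPAC-1 pair was 0.13 without further scaling, 0.00084 after median-of-ratios and -0.21 after upper-quartile scaling, against -0.045, -0.0051 and -0.040 in the BxPC-3 pair.

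In the BxPC-3 pair the 2 SDE genes of the list, SESN2 and TRIB3, were of the ATF4 branch and rose, and both were lower in CFPAC-1-GR than in CFPAC-1. In BxPC-3-GR against BxPC-3, 33 of the 35 genes were tested (DERL3 and CHAC1 were too low), 10 passed upward (30.3%, against 26.2% of all 11710 genes tested) and 9 downward (27.3%, against 31.5%). SDE upward were 2 (6.06%, against 4.14% of all genes) and SDE downward 0, against 3.62%. No gene of the list was SDE downward by limma, and 9 of the 33 were lower at an adjusted p below 0.05. The libraries of the 2 groups did not overlap for 23 of 33 genes (69.7%), against 66.1% of all genes. In CFPAC-1-GR against CFPAC-1, 34 genes were tested, of which 15 passed upward (44.1%, against 44.6% of all 12051 genes) and 11 downward (32.4%, against 34.9%). Of these, 6 were SDE upward (17.6%, against 20.5%) and 3 SDE downward (8.82%, against 11.7%), and the libraries did not overlap for 26 of 34 genes (76.5%, against 82.1%). The shares over the whole list lay near those of all genes in both pairs. With median-of-ratios scaling 11 passed upward and 6 downward in the BxPC-3 pair, beside 3376 and 3305 of all 11710 genes. In the CFPAC-1 pair 13 and 15 did so, beside 4854 and 4784 of all 12051 genes. With upper-quartile scaling 10 and 17 did so in the latter, beside 4083 and 5669. After the GC correction, 11 genes of the CFPAC-1 pair passed upward and 12 downward, beside 29.6% and 30.6% of all genes, and 0 were SDE upward and 2 downward, beside 4.69% and 3.97%.

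**Figure D1:**
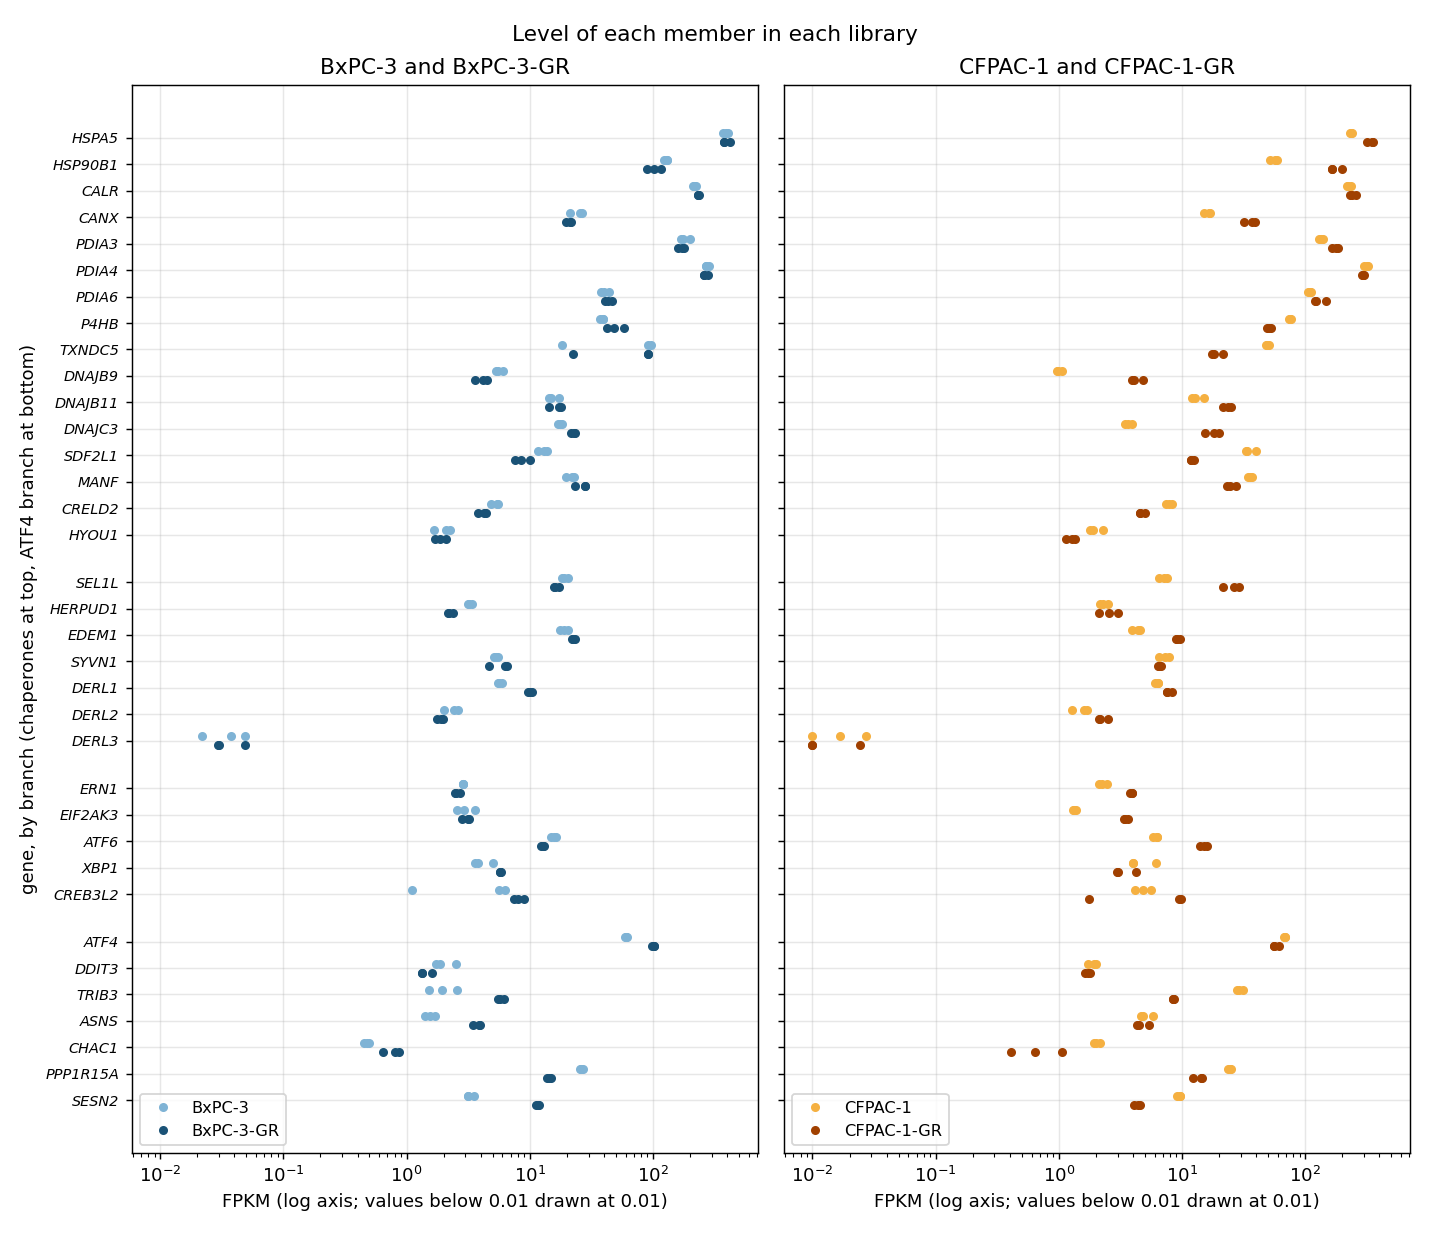
FPKM of each of the 35 genes in each library on a log axis, with BxPC-3 and BxPC-3-GR on the left and CFPAC-1 and CFPAC-1-GR on the right. Genes are ordered by branch and each point is 1 library. HSPA5 was the most abundant gene of the list in the BxPC-3 pair and DERL3 the lowest throughout, and the isolated points of TXNDC5 and CREB3L2 are single libraries.

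**Figure D2:**
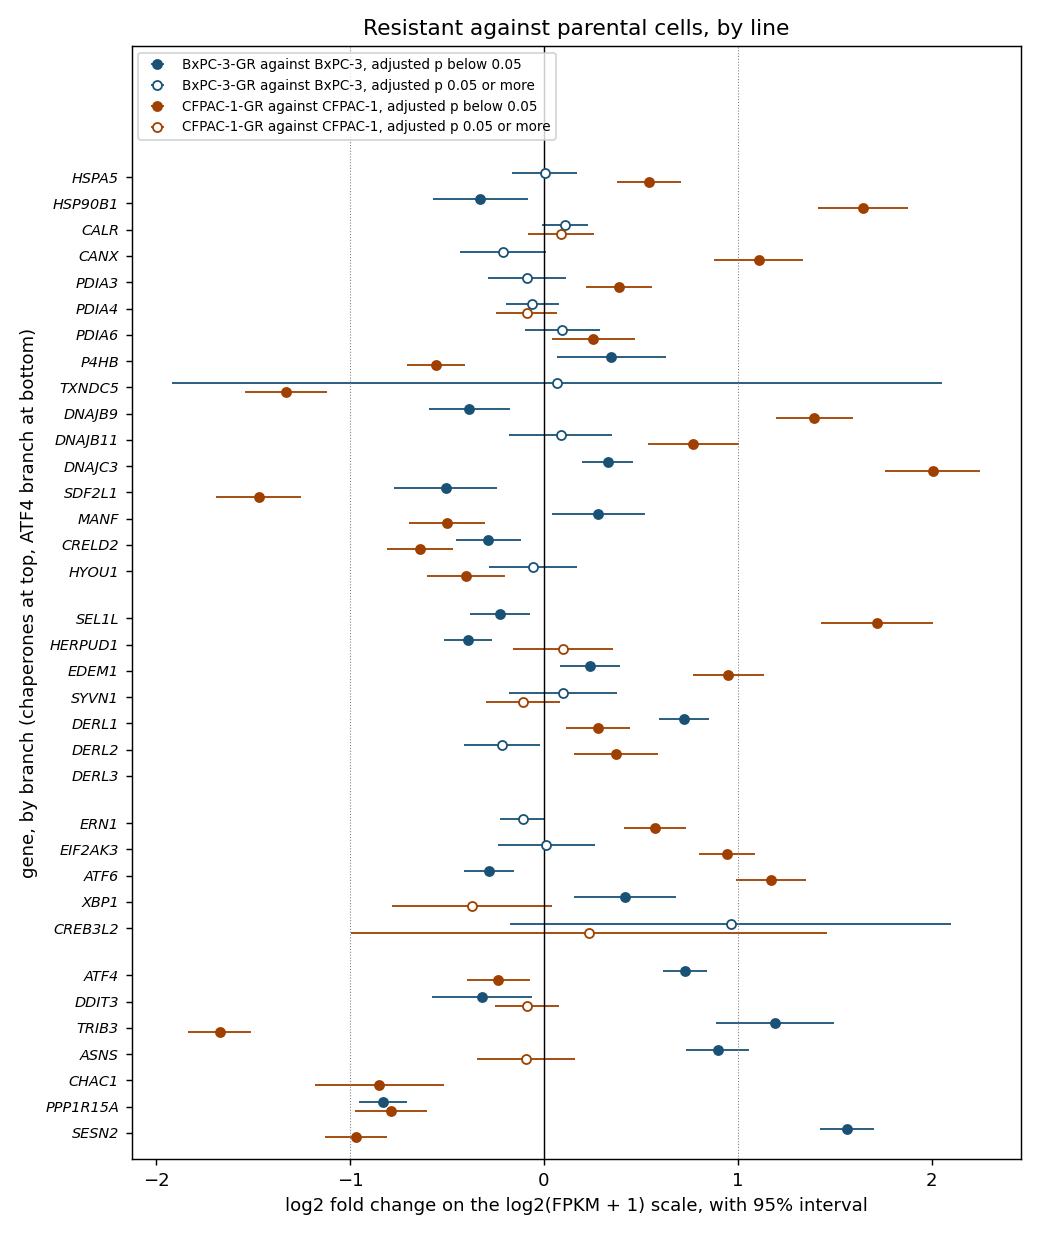
log2FC of each tested gene in BxPC-3-GR against BxPC-3 (blue) and CFPAC-1-GR against CFPAC-1 (brown), with 95% intervals from limma on 3 libraries per group. Filled points passed at an adjusted p below 0.05 and dotted lines mark an absolute log2FC of 1. TRIB3 and SESN2 lie on opposite sides of 0 in the 2 pairs.

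All 5 sensors and factors of the ER were tested in both pairs. In the BxPC-3 pair 1 rose (20%, against 26.2% of all genes) and 1 fell (20%, against 31.5%). In the CFPAC-1 pair 3 rose (60%, against 44.6%) and 0 fell, against 34.9%. The median log2FC was 0.012 and 0.57, beside -0.045 and 0.13 over all genes. GC-corrected, 2 rose (40%, against 29.6%) and 1 fell (20%, against 30.6%) in the latter pair. With upper-quartile scaling 3 rose and 1 fell there, beside 4083 and 5669 of all 12051 genes. ATF6, the sensor that becomes a transcription factor, was 14.9, 16.3 and 15.7 FPKM in the BxPC-3 libraries and 12.96, 12.3 and 12.7 in BxPC-3-GR. It was 6.21, 6.23 and 5.84 FPKM in CFPAC-1 and 16.03, 13.9 and 15.1 in CFPAC-1-GR. The groups did not overlap in either pair, and the direction differed. The log2FC was -0.28 (SE 0.054, adjusted p = 0.00478) in the BxPC-3 pair and 1.17 (SE 0.075, adjusted p = 1.26e-05) in the CFPAC-1 pair. GC-corrected, the latter was 0.047 with an adjusted p of 0.504, and ATF6 has exons of low GC content (41.3%). ERN1, the kinase and nuclease that splices XBP1, was 2.86 ± 0.011 FPKM (SD, n = 3) in BxPC-3, 2.57 ± 0.12 in BxPC-3-GR, 2.27 ± 0.16 in CFPAC-1 and 3.86 ± 0.067 in CFPAC-1-GR, a rise in the CFPAC-1 pair (log2FC 0.57, adjusted p = 0.000177; GC-corrected 0.35, adjusted p = 0.00191). EIF2AK3 was 3.04 ± 0.53 FPKM in BxPC-3 and 3.06 ± 0.199 in BxPC-3-GR, with a 95% interval of the log2FC from -0.24 to 0.26. It rose in the CFPAC-1 pair from 1.34 ± 0.041 to 3.4999 ± 0.12 FPKM (log2FC 0.94, adjusted p = 1.3e-05; GC-corrected 0.25, adjusted p = 0.00713).

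XBP1, whose spliced and unspliced forms the table does not separate, was 3.57, 3.796 and 5.02 FPKM in BxPC-3 and 5.75, 5.89 and 5.75 in BxPC-3-GR. The groups did not overlap, and XBP1 rose (log2FC 0.42, SE 0.11, adjusted p = 0.0169), although with 1 library left out the adjusted p reached 0.0556. In the CFPAC-1 pair it was 4.03, 4.003 and 6.11 FPKM in CFPAC-1 and 2.98, 3.003 and 4.21 in CFPAC-1-GR, where replicate 3 was the highest in each group and the groups overlapped. It did not pass there (log2FC -0.37, SE 0.17, adjusted p = 0.0869), and GC-corrected it was lower (-1.22, adjusted p = 0.00157). The response of XBP1 differed between the pairs, by -0.79 (CFPAC-1 pair minus BxPC-3 pair, adjusted p = 0.00724). CREB3L2, a membrane-bound transcription factor of the same kind as ATF6, was 5.62, 6.31 and 1.12 FPKM in BxPC-3 and 7.399, 8.005 and 9.01 in BxPC-3-GR, and 4.78, 5.599 and 4.11 in CFPAC-1 and 9.52, 1.76 and 9.86 in CFPAC-1-GR. A single library stood far below the others in BxPC-3 (replicate 3) and in CFPAC-1-GR (replicate 2), and the gene passed in neither pair (adjusted p = 0.125 and 0.69). Leaving out 1 library at a time gave log2FC of 0.39 to 1.28 and of -0.105 to 0.88.

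The chaperones and folding enzymes were the most abundant branch and split in both pairs. Of 16 genes, 3 rose (18.75%, against 26.2% of all genes), 4 fell (25%, against 31.5%) and 9 did not pass in the BxPC-3 pair. The median log2FC was -0.027 there. In the CFPAC-1 pair 8 rose (50%, against 44.6%), 6 fell (37.5%, against 34.9%) and 2 did not pass, shares near those of all genes. The median was 0.17, beside 0.13 over all genes. Their summed level was 1393 to 1511 FPKM in BxPC-3 and 1341 to 1526 in BxPC-3-GR, overlapping ranges, and 1287 to 1328 in parental and 1493 to 1589 in resistant CFPAC-1 cells, where every resistant library was higher. After the GC correction 5 rose (31.25%, against 29.6% of all genes) and 6 fell (37.5%, against 30.6%) in the CFPAC-1 pair. With upper-quartile scaling 5 rose and 8 fell there, beside 4083 and 5669 of all 12051 genes.

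HSPA5 (BiP), the main Hsp70 chaperone of the ER and a standard readout of ER stress, was 392, 369 and 404 FPKM in BxPC-3 and 374, 374 and 419.6 in BxPC-3-GR. The ranges overlapped, and the 95% interval of the log2FC ran from -0.17 to 0.17. In CFPAC-1 it was 229, 238 and 233 FPKM and in CFPAC-1-GR 350.2, 351 and 318, each resistant library above each parental one. HSPA5 rose in that pair (log2FC 0.54, SE 0.069, adjusted p = 0.000298), and GC-corrected the log2FC was 0.12 with an adjusted p of 0.126. HSP90B1 (GRP94), the Hsp90 of the ER, was 129.8, 123 and 131 FPKM in BxPC-3 and 89.2, 101 and 116 in BxPC-3-GR. Its level in CFPAC-1 was 52.1, 56.7 and 58.4 FPKM and in CFPAC-1-GR 199, 166 and 165. No group overlapped its partner, the resistant libraries being lower in the first pair and higher in the second. The log2FC was -0.33 (adjusted p = 0.0313, rising to 0.0804 with 1 library left out) and 1.65 (SE 0.097, adjusted p = 9.64e-06). HSP90B1 was still higher in CFPAC-1-GR after the GC correction (0.65, adjusted p = 0.000658).

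Among the J-domain cofactors that work with HSPA5 were the genes with the largest ratios of mean FPKM in the CFPAC-1 pair as deposited, DNAJC3 and DNAJB9. DNAJC3 (p58IPK), which also restrains EIF2AK3, was 17.1, 17.7 and 18.4 FPKM in BxPC-3 and 21.7, 22.8 and 23.1 in BxPC-3-GR. It was 3.64, 3.95 and 3.45 FPKM in CFPAC-1 and 19.8, 15.4 and 18.3 in CFPAC-1-GR, 4.85 times higher in mean FPKM. It rose in both pairs without overlap of the groups, by a log2FC of 0.33 (SE 0.053, adjusted p = 0.00259) and of 2.004 (SE 0.103, adjusted p = 7.17e-06; GC-corrected 0.87, adjusted p = 0.000206). DNAJB9 (ERdj4), a target of XBP1, was 5.31, 5.47 and 6.11 FPKM in BxPC-3 and 4.14, 3.598 and 4.51 in BxPC-3-GR, a fall (log2FC -0.39, adjusted p = 0.00937). It was 1.06, 0.9796 and 0.963 FPKM in CFPAC-1 and 4.82, 3.898 and 4.099 in CFPAC-1-GR, a rise (log2FC 1.39, SE 0.083, adjusted p = 1e-05; GC-corrected 0.47, adjusted p = 0.00107). DNAJB11 (ERdj3) overlapped between the groups in the BxPC-3 pair (log2FC 0.086, adjusted p = 0.527). In the CFPAC-1 pair its log2FC was 0.77 (adjusted p = 0.000289), and the sign turned to -0.48 (adjusted p = 0.0139) with the GC correction. DNAJB11 had the lowest GC content of the list, 37.8%.

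The lectin chaperones that hold glycoproteins behaved unlike each other in the CFPAC-1 pair. CANX (calnexin, in the membrane) was 21.3, 25.4 and 26.5 FPKM in BxPC-3 and 21.2, 21.5 and 19.8 in BxPC-3-GR, with overlap and no pass (adjusted p = 0.0896), and 14.9, 16.9 and 16.6 in CFPAC-1 and 38.99, 31.9 and 37.1 in CFPAC-1-GR (log2FC 1.11, SE 0.096, adjusted p = 4.23e-05). GC-corrected, that log2FC was 0.073 with an adjusted p of 0.441. CALR (calreticulin, its soluble counterpart) was 217 ± 6.6, 234 ± 3.3, 227 ± 8.6 and 241 ± 13 FPKM (SD, n = 3), giving parental before resistant and the BxPC-3 pair first, and passed in neither pair, with 95% intervals of the log2FC from -0.0099 to 0.22 and from -0.0802 to 0.26. GC-corrected, CALR passed upward in both pairs (0.18, adjusted p = 0.0134, and 0.498, adjusted p = 0.000398). With upper-quartile scaling CALR was lower in the CFPAC-1 pair (-0.34). CALR has exons of 53.9% GC and CANX of 41.6%.

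The disulfide isomerases did not move as a block. P4HB, the founding member, rose in the BxPC-3 pair from 38.6 ± 1.1 to 49.8 ± 8.1 FPKM (log2FC 0.35, adjusted p = 0.0421, up to 0.106 with 1 library left out) and fell in the CFPAC-1 pair from 75.4 ± 1.3 to 50.9 ± 1.7 FPKM (log2FC -0.56, adjusted p = 0.000146), a difference that was 0.022 GC-corrected (adjusted p = 0.739). PDIA3, PDIA4 and PDIA6 passed in none of their tests in the BxPC-3 pair, with log2FC of -0.0897, -0.0599 and 0.094. In the CFPAC-1 pair PDIA3 (log2FC 0.39, adjusted p = 0.00183) and PDIA6 (0.25, adjusted p = 0.0345) rose as deposited, and both had the opposite sign with upper-quartile scaling (-0.043 and -0.18) and GC-corrected (-0.303, adjusted p = 0.00563, and -0.199, adjusted p = 0.0638). PDIA6 shares 1033 exon bases with ATP6V1C2 on the opposite strand, and the strand setting of the counting is not given in the sources used here.

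TXNDC5, another isomerase, cannot be read from these values alone. It shares 2658 exon bases with the readthrough gene BLOC1S5-TXNDC5 on the same strand. TXNDC5 was 18.3, 96.4 and 91.7 FPKM in BxPC-3, 22.5, 91.8 and 91.02 in BxPC-3-GR, while in CFPAC-1 it was 47.97, 48.7 and 50.97 and in CFPAC-1-GR 21.3, 18.1 and 17.6. The readthrough gene was 127, 0 and 0 FPKM in BxPC-3, 84.5, 0 and 0 in BxPC-3-GR, listed at 0 in all 3 CFPAC-1 libraries, and 74.9, 73.7 and 69.7 in CFPAC-1-GR. TXNDC5 was low in the libraries where the readthrough gene was above 0. Its SDE fall in the CFPAC-1 pair (log2FC -1.33, SE 0.088, adjusted p = 1.4e-05) is therefore uncertain, and it did not pass in the BxPC-3 pair (adjusted p = 0.95), where leaving out 1 library gave log2FC of -0.700 to 0.73. Without TXNDC5, 2 genes of the list were SDE downward in the CFPAC-1 pair, SDF2L1 and TRIB3. GC-corrected, TXNDC5 (-1.26) was SDE downward together with XBP1, so that only XBP1 remains there without it.

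Other luminal or secreted targets of the response, SDF2L1, CRELD2, MANF and HYOU1, fell in the CFPAC-1 pair as deposited. SDF2L1, part of the HSPA5 chaperone complex, was 13.7, 13.1 and 11.6 FPKM in BxPC-3 and 8.53, 10.1 and 7.61 in BxPC-3-GR, and 40.03, 33.4 and 32.7 in CFPAC-1 and 11.9, 12.5 and 11.8 in CFPAC-1-GR. The resistant libraries lay below the parental ones in both pairs. The log2FC was -0.51 (SE 0.11, adjusted p = 0.00829) and -1.47 (SE 0.092, adjusted p = 1.18e-05; GC-corrected -0.37, adjusted p = 0.0104). SDF2L1 had the highest GC content of the tested genes of the list, 65.5%. CRELD2, an ER protein induced by stress, also fell in both, from 5.27 ± 0.34 to 4.14 ± 0.299 FPKM (log2FC -0.29, adjusted p = 0.0124) and from 7.86 ± 0.45 to 4.69 ± 0.25 FPKM (log2FC -0.64, adjusted p = 0.000151; GC-corrected -0.34, adjusted p = 0.00372). MANF, a secreted ER stress factor, rose in the BxPC-3 pair (log2FC 0.28, adjusted p = 0.0484, up to 0.134 with 1 library left out) and fell in the CFPAC-1 pair (log2FC -0.502, adjusted p = 0.00106; GC-corrected -0.27, adjusted p = 0.017). HYOU1 (ORP150), a large Hsp70-like protein, was 1.26 to 1.998 FPKM in group means and fell in the CFPAC-1 pair as deposited (log2FC -0.402, adjusted p = 0.00353; GC-corrected -0.16, adjusted p = 0.123).

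Genes with an ERSE did not share a direction. The counts per element below stand beside 26.2% of all genes up and 31.5% down in the BxPC-3 pair. In the CFPAC-1 pair the shares of all genes were 44.6% and 34.9%, and 29.6% and 30.6% GC-corrected. With so few genes per element, the counts describe these genes and are no result about an element. Of the 7 genes with an ERSE, 1 rose (XBP1), 2 fell (HSP90B1 and CRELD2) and 4 did not pass in the BxPC-3 pair, with log2FC from -0.33 to 0.42. As deposited, the CFPAC-1 pair had 4 that rose (HSPA5, HSP90B1, CANX and PDIA6), 1 that fell (CRELD2) and 2 that did not pass. The log2FC ran from -0.64 to 1.65. GC-corrected, HSP90B1 and CALR passed upward and CRELD2 and XBP1 downward in this pair, and HSPA5, CANX and PDIA6 did not pass. Of the 3 genes with ERSE-II, 2 fell in the BxPC-3 pair (SDF2L1 and HERPUD1) and 2 in the CFPAC-1 pair (SDF2L1 and HYOU1), and none rose in either. Of the 2 genes with a UPRE, HYOU1 and TXNDC5, neither passed in the BxPC-3 pair and both fell in the CFPAC-1 pair, the value of TXNDC5 being uncertain. Of the 3 genes with a CARE, ASNS rose and HERPUD1 fell in the BxPC-3 pair, where CHAC1 was not tested. In the CFPAC-1 pair CHAC1 fell as deposited and ASNS and HERPUD1 did not pass. GC-corrected, HYOU1 and CHAC1 did not pass in the CFPAC-1 pair, and SDF2L1, TXNDC5 and ASNS were lower. The calls per element in that pair thus depend on the processing.

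In ER-associated degradation, of 6 tested, 2 rose (33.3%, against 26.2% of all genes) and 2 fell (33.3%, against 31.5%) in the BxPC-3 pair. In the CFPAC-1 pair 4 rose (66.7%, against 44.6%) and 0 fell, against 34.9%. The median log2FC was -0.060 and 0.33. GC-corrected, 3 rose (50%, against 29.6%) and 2 fell (33.3%, against 30.6%) in the latter pair. With upper-quartile scaling 2 rose and 1 fell there, beside 4083 and 5669 of all 12051 genes. SEL1L, the adaptor of the HRD1 ubiquitin ligase complex, was 18.3, 18.95 and 20.6 FPKM in BxPC-3 and 15.7, 16.1 and 17.1 in BxPC-3-GR, and 6.46, 7.61 and 7.0996 in CFPAC-1 and 28.9, 21.4 and 26.5 in CFPAC-1-GR. The groups did not overlap in either pair. SEL1L fell in the first (log2FC -0.23, adjusted p = 0.0226, up to 0.0737 with 1 library left out) and rose in the second (log2FC 1.72, SE 0.12, adjusted p = 1.76e-05; GC-corrected 0.404, adjusted p = 0.00519). SYVN1, the HRD1 ligase itself, was 5.33 ± 0.22 and 5.82 ± 1.01 FPKM in the BxPC-3 pair and 7.14 ± 0.66 and 6.53 ± 0.21 in the CFPAC-1 pair and passed in neither, although GC-corrected it passed upward in the latter (0.32, adjusted p = 0.0152). EDEM1, which marks misfolded glycoproteins by trimming mannose, rose in both pairs, from 18.98 ± 1.3 to 22.5 ± 0.62 FPKM (log2FC 0.24, adjusted p = 0.0198) and from 4.28 ± 0.35 to 9.198 ± 0.42 FPKM (log2FC 0.95, adjusted p = 3.03e-05; GC-corrected 0.29, adjusted p = 0.00665). In the BxPC-3 pair the adjusted p of EDEM1 reached 0.0585 with 1 library left out.

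HERPUD1, a membrane protein of the same complex that is strongly induced by ER stress, was 3.22, 3.17 and 3.38 FPKM in BxPC-3 and 2.37, 2.19 and 2.16 in BxPC-3-GR, all resistant libraries below the parental ones. It fell (log2FC -0.39, SE 0.051, adjusted p = 0.00104). In CFPAC-1 it was 2.28, 2.499 and 2.16 FPKM and in CFPAC-1-GR 2.098, 2.57 and 3.03, with overlap and a 95% interval of the log2FC from -0.16 to 0.36. The derlins form part of the retrotranslocation channel. DERL1 rose in the BxPC-3 pair from 5.703 ± 0.21 to 10.1 ± 0.397 FPKM (log2FC 0.72, adjusted p = 0.00011). In the CFPAC-1 pair the log2FC of DERL1 was 0.28 (adjusted p = 0.00769) as deposited, -0.0996 with upper-quartile scaling and -0.64 GC-corrected (adjusted p = 0.000468), so its direction there depends on the processing. DERL2 changed sign in the same way, from 0.37 (adjusted p = 0.00711) to -0.83 (adjusted p = 0.000202), and did not pass in the BxPC-3 pair (log2FC -0.22, adjusted p = 0.0601). DERL3, a derlin of secretory cells, was at most 0.049 FPKM in any library, was listed at 0 in 1 CFPAC-1 library, and was not tested.

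The ATF4 branch rose for the most part in the BxPC-3 pair and fell for the most part in the CFPAC-1 pair as deposited. In the BxPC-3 pair 4 of 6 tested genes rose (66.7%, against 26.2% of all genes) and 2 fell (33.3%, against 31.5%). The median log2FC was 0.81, beside -0.045 over all genes. Of 7 tested in the CFPAC-1 pair, 0 rose, against 44.6% of all genes, and 5 fell (71.4%, against 34.9%). The median there was -0.79, beside 0.13. After the GC correction 1 rose (14.3%, against 29.6%) and 3 fell (42.9%, against 30.6%), with a median of -0.045 beside -0.016. The 7 genes summed to 94.0 to 98.2 FPKM in BxPC-3 and 136 to 140.1 in BxPC-3-GR, and to 139 to 141 in parental and 87.9 to 97.2 in resistant CFPAC-1 cells, ATF4 being the most abundant of them. With upper-quartile scaling 7 of 7 fell in the CFPAC-1 pair, where 5669 of all 12051 genes fell and the all-gene median was -0.21. Exons of PPP1R15A, SESN2, TRIB3 and CHAC1 had GC contents of 58.8% to 62.6%.

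ATF4, the transcription factor of the integrated stress response, was 61.5, 60.5 and 59.2 FPKM in BxPC-3 and 102, 101 and 98.5 in BxPC-3-GR. The groups were well apart, and ATF4 rose (log2FC 0.73, SE 0.046, adjusted p = 6.55e-05). In CFPAC-1 it was 66.96, 68.7 and 68.2 FPKM and in CFPAC-1-GR 56.03, 61.5 and 55.4. There the resistant libraries were lower (log2FC -0.24, SE 0.069, adjusted p = 0.0162), but the adjusted p reached 0.0586 with 1 library left out and the GC-corrected log2FC was positive (0.41, adjusted p = 0.00122). The direction of ATF4 in the CFPAC-1 pair thus depends on the correction. The difference of the responses, CFPAC-1 pair minus BxPC-3 pair, was -0.96 (adjusted p = 5.02e-07) and GC-corrected -0.35 (adjusted p = 0.000697).

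TRIB3, a pseudokinase induced by ATF4 and CHOP, was 2.55, 1.53 and 1.94 FPKM in BxPC-3 and 5.74, 6.16 and 5.53 in BxPC-3-GR, 2.89 times higher in mean FPKM. In CFPAC-1 it was 31.02, 28.7 and 27.7 FPKM and in CFPAC-1-GR 8.52, 8.47 and 8.38, 3.45 times lower. No libraries overlapped in either pair. The log2FC was 1.19 (SE 0.12, adjusted p = 0.000421) in the BxPC-3 pair and -1.67 (SE 0.068, adjusted p = 6.25e-06) in the CFPAC-1 pair, where it was -0.85 (adjusted p = 0.000138) GC-corrected. SESN2 (sestrin 2), which restrains mTORC1 when amino acids are low and is also a p53 target, was 3.53, 3.13 and 3.14 FPKM in BxPC-3 and 11.8, 11.7 and 11.3 in BxPC-3-GR, the largest rise of the list in that pair (3.55 times in mean FPKM). It was 9.05, 9.67 and 9.69 FPKM in CFPAC-1 and 4.39, 4.55 and 4.099 in CFPAC-1-GR, again without overlap. The log2FC was 1.56 (SE 0.057, adjusted p = 9.22e-06) and -0.97 (SE 0.068, adjusted p = 1.72e-05; GC-corrected -0.21, adjusted p = 0.0329).

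ASNS (asparagine synthetase), whose CARE is printed above, was 1.54, 1.42 and 1.69 FPKM in BxPC-3 and 3.88, 3.91 and 3.45 in BxPC-3-GR. All resistant libraries were higher and ASNS rose (log2FC 0.896, SE 0.067, adjusted p = 0.00011). Its level was 5.82, 4.83 and 4.67 FPKM in CFPAC-1 and 4.31, 5.36 and 4.49 in CFPAC-1-GR, overlapping, with a 95% interval of the log2FC from -0.35 to 0.16, and GC-corrected it was lower (-0.44, adjusted p = 0.0102). The response of ASNS differed between the pairs (-0.99, adjusted p = 3.19e-05). CHAC1, which degrades glutathione and is induced by ATF4, was 0.454, 0.473 and 0.492 FPKM in BxPC-3 and 0.8001, 0.876 and 0.642 in BxPC-3-GR, too low for the test, with each resistant library above each parental one. It was 2.15, 1.9998 and 1.94 FPKM in CFPAC-1 and 0.634, 1.06 and 0.406 in CFPAC-1-GR, a fall as deposited (log2FC -0.85, SE 0.14, adjusted p = 0.00106) that did not pass GC-corrected (0.14, adjusted p = 0.369).

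DDIT3 (CHOP), the factor linked to cell death in prolonged stress, did not follow TRIB3 and SESN2 in the BxPC-3 pair. It was 2.51, 1.75 and 1.86 FPKM in BxPC-3 and 1.603, 1.33 and 1.34 in BxPC-3-GR, a fall (log2FC -0.32, SE 0.11, adjusted p = 0.0419) whose adjusted p reached 0.111 with 1 library left out. It was 1.72, 1.99 and 1.93 FPKM in CFPAC-1 and 1.61, 1.79 and 1.73 in CFPAC-1-GR, overlapping, with a 95% interval from -0.25 to 0.077. DDIT3 shares 355 exon bases with MARS on the opposite strand. PPP1R15A (GADD34), the phosphatase subunit that reverses eIF2-alpha phosphorylation, fell in both pairs, from 26.3 ± 0.68 to 14.3 ± 0.49 FPKM (log2FC -0.83, adjusted p = 5.61e-05) and from 24.3 ± 0.55 to 13.6 ± 1.1 FPKM (log2FC -0.79, adjusted p = 8.01e-05). GC-corrected, the fall of PPP1R15A stood in the BxPC-3 pair (-0.802, adjusted p = 9.25e-05) and not in the CFPAC-1 pair (-0.045, adjusted p = 0.544).

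**Figure D3:**
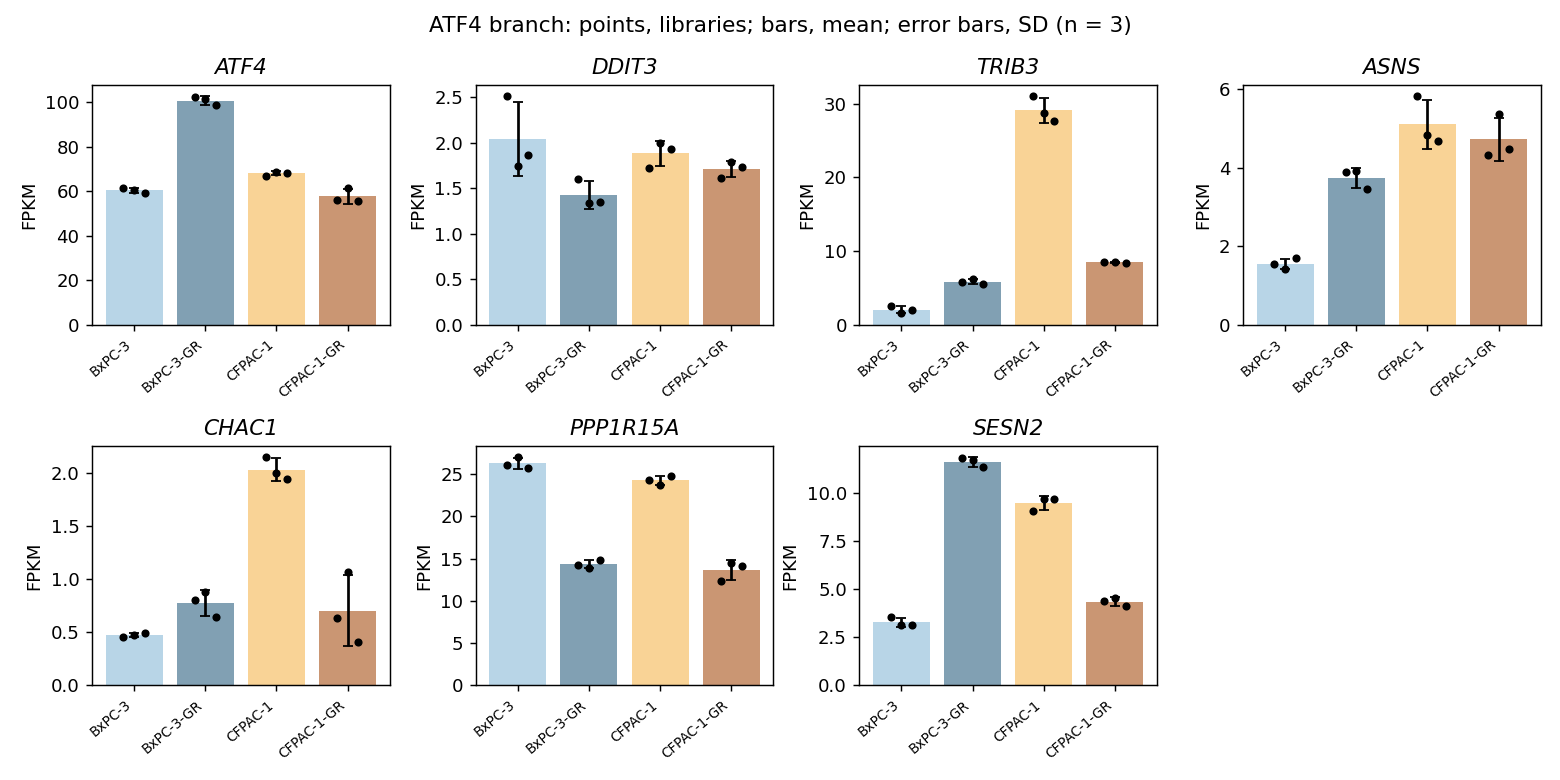
FPKM of the 7 genes of the ATF4 branch in the 4 lines, with points for libraries, bars for the mean and error bars for the SD (n = 3). TRIB3 and SESN2 are higher in BxPC-3-GR than in BxPC-3 and lower in CFPAC-1-GR than in CFPAC-1, PPP1R15A is lower in both resistant lines, and ASNS is higher in BxPC-3-GR than in BxPC-3.

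The parental lines started from different levels. In FPKM, TRIB3 was 2.01 ± 0.51 in BxPC-3 and 29.1 ± 1.7 in CFPAC-1, SESN2 3.27 ± 0.23 and 9.47 ± 0.36, and ASNS 1.55 ± 0.13 and 5.11 ± 0.62, and the 3 values of each gene did not overlap. In the resistant lines the levels of TRIB3 and ASNS lay closer as deposited. TRIB3 was 5.81 ± 0.32 in BxPC-3-GR against 8.46 ± 0.067 in CFPAC-1-GR, and ASNS 3.75 ± 0.26 against 4.72 ± 0.56. For SESN2 the order turned, with 11.6 ± 0.25 in BxPC-3-GR against 4.35 ± 0.23 in CFPAC-1-GR. None of these levels is GC-corrected, and the log2FC of the CFPAC-1 pair depended on that correction. It was -1.67 as deposited and -0.85 GC-corrected for TRIB3, and -0.97 and -0.21 for SESN2. ASNS, which did not pass as deposited, was at -0.44 GC-corrected. The 2 parental lines were not compared by a test. The labels give RPMI 1640 as the medium of every line and the study's methods give IMDM for CFPAC-1, so line and medium cannot be told apart in these levels.

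Across the 34 tested genes the log2FC of the CFPAC-1 pair followed the GC content of the exons, as it did over all genes. Spearman's rho over the 34 genes was -0.858 (a description across genes of the same 6 libraries), -0.096 after the correction, and 0.179 over the 33 genes of the BxPC-3 pair. The correction takes out the trend with GC content fitted over all genes of these libraries, whatever its source. The drop in rho and the corrected medians below are thus largely built in. The 10 genes lowest in GC content (37.8% to 43.1%, among them SEL1L, DNAJC3, DNAJB9, HSP90B1, ATF6 and CANX) had a median log2FC of 1.14 in the CFPAC-1 pair and of 0.060 after the correction. The 10 highest (54.5% to 65.5%, among them SDF2L1, CHAC1, TRIB3, SESN2 and PPP1R15A) had a median of -0.71 and of -0.10. The 6 genes that were SDE upward in CFPAC-1-GR are all among the lowest 10, and none of them was SDE after the correction, although HSP90B1, DNAJB9, DNAJC3 and SEL1L still passed upward.

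Whether the response differed between the pairs was tested as an interaction over all 12 libraries, with 33 genes of the list among 12210. The response was SDE higher in the CFPAC-1 pair for 6 (18.2%, against 23.6% of all genes), and SDE lower for 2 (6.06%, against 14.4%). The former were HSP90B1, CANX, DNAJB9, DNAJC3, SEL1L and ATF6, and the latter TRIB3 and SESN2. With median-of-ratios scaling 6 were SDE higher and 8 lower, beside 2162 and 2452 of all 12210 genes. TRIB3 differed by -2.86 (SE 0.15, adjusted p = 2.82e-08) and SESN2 by -2.53 (SE 0.082, adjusted p = 2.28e-09). After the GC correction both were still SDE (-2.01 and -1.76), and none of the 6 was (0.304 for CANX to 0.98 for HSP90B1). ASNS, XBP1 and DERL1 were then SDE lower in addition (-1.33, -1.69 and -1.33). In all, 0 were SDE higher and 5 lower (15.2%), beside 1134 and 1109 of all 12184 genes. Read side by side, 5 genes rose in the BxPC-3 pair and fell in the CFPAC-1 pair as deposited (ATF4, MANF, P4HB, SESN2 and TRIB3), 4 did the opposite (ATF6, DNAJB9, HSP90B1 and SEL1L), 3 rose in both (DERL1, DNAJC3 and EDEM1), 3 fell in both (CRELD2, PPP1R15A and SDF2L1), and 4 passed in neither (CALR, CREB3L2, PDIA4 and SYVN1).

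Further genes of the pathway were read from lists set beside the 35. Of all genes, 26.2% rose and 31.5% fell in the BxPC-3 pair, and 44.6% rose and 34.9% fell in the CFPAC-1 pair. GC-corrected, 29.6% and 30.6% did so in the CFPAC-1 pair, and with upper-quartile scaling 4083 rose and 5669 fell of 12051. Among other ATF4 targets of amino acid synthesis and stress, 10 of 21 tested rose (47.6%) and 3 fell (14.3%) in the BxPC-3 pair. Their median log2FC was 0.24, beside -0.045 over all genes. In the CFPAC-1 pair 8 of 23 rose (34.8%) and 10 fell (43.5%), with a median of -0.16 beside 0.13. There 7 rose and 9 fell GC-corrected, and 5 and 14 with upper-quartile scaling. In the BxPC-3 pair the largest changes were those of GDF15, a stress cytokine (2.03, adjusted p = 1.5e-05), SLC6A9, a glycine transporter (1.68, adjusted p = 5.13e-06), and DDIT4, an inhibitor of mTORC1 (1.66, adjusted p = 0.000109). In the CFPAC-1 pair SLC6A9 fell (-1.02; GC-corrected -0.37, adjusted p = 0.00164), DDIT4 fell as deposited (-0.597) and had the opposite sign GC-corrected (0.19, adjusted p = 0.143), and GDF15 did not pass (-0.28) but passed upward GC-corrected (0.71, adjusted p = 0.00153). The other SDE genes of this list in the BxPC-3 pair, named after their values were seen, were PHGDH, the first enzyme of serine synthesis, up (1.36) there and down in the CFPAC-1 pair (-1.002; GC-corrected -1.05), and ATF5, a factor related to ATF4, down (-1.403). The largest SDE changes of the CFPAC-1 pair were those of SLC38A2, a neutral amino acid transporter (1.95; GC-corrected 0.68), SHMT2, the mitochondrial serine hydroxymethyltransferase (-1.31; GC-corrected -0.800), and CEBPG, a partner of ATF4 (1.18; GC-corrected 0.49).

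The cytosolic aminoacyl-tRNA synthetases, many of them ATF4 targets, did not follow TRIB3 and SESN2. In the BxPC-3 pair 11 of 18 tested fell (61.1%, against 31.5% of all genes) and 3 rose (16.7%, against 26.2%), with a median log2FC of -0.30. In the CFPAC-1 pair 10 rose (55.6%, against 44.6%) and 7 fell (38.9%, against 34.9%), with a median of 0.57. GC-corrected, 8 rose and 8 fell there (median 0.037). RARS, XPOT (which exports tRNA) and EPRS had the largest SDE changes of the CFPAC-1 pair, 1.88, 1.72 and 1.72 (GC-corrected 0.995, 0.58 and 0.88), and in the BxPC-3 pair they fell, with log2FC of -0.62, -0.32 and -0.32.

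The shares below stand beside 26.2% of all genes up and 31.5% down in the BxPC-3 pair, and 44.6% and 34.9% in the CFPAC-1 pair. Several lay near these. Of 17 genes of translocation and signal peptide handling, 2 rose (11.8%) and 8 fell (47.1%) in the BxPC-3 pair. In the CFPAC-1 pair 9 rose (52.9%) and 5 fell (29.4%), 3 and 8 GC-corrected and 6 and 8 with upper-quartile scaling. TRAM1, SPCS3 and SEC62 had the largest changes there, 2.36, 1.98 and 1.86 (GC-corrected 1.23, 0.65 and 0.497). Among other folding and glycoprotein genes 8 of 18 rose (44.4%) and 4 fell (22.2%) in the BxPC-3 pair. In the CFPAC-1 pair 7 of 19 rose (36.8%) and 11 fell (57.9%), 4 and 8 GC-corrected. The largest changes there were those of DNAJC10 (1.498), ERO1A (1.48) and ERO1B (1.47), which were -0.096, 0.202 and 0.22 GC-corrected. Among other degradation genes 3 of 16 rose (18.75%) and 6 fell (37.5%) in the BxPC-3 pair. In the CFPAC-1 pair 6 rose (37.5%) and 8 fell (50%), 4 and 8 GC-corrected and 4 and 10 with upper-quartile scaling. EDEM3 (1.88), ERLEC1 (1.35) and RNF139 (1.16) were at 0.58, 0.49 and 0.69 GC-corrected. Among other sensors and factors 3 of 13 rose (23.1%) and 4 fell (30.8%) in the BxPC-3 pair. In the CFPAC-1 pair 7 of 15 rose (46.7%) and 5 fell (33.3%), 5 and 2 GC-corrected and 6 and 7 with upper-quartile scaling. EIF2AK2 (PKR), the eIF2-alpha kinase for double-stranded RNA, was the highest of these (2.100, adjusted p = 6.38e-06; GC-corrected 0.72, adjusted p = 0.000165), followed by MBTPS2, a protease that cuts ATF6 (1.36; GC-corrected -0.054), and PPP1R15B, the constitutive counterpart of PPP1R15A (1.33; GC-corrected 0.53). EIF2AK2 did not pass in the BxPC-3 pair (-0.14, adjusted p = 0.137).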

How the data were processed

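The authors sequenced total RNA of 4 lines with 3 libraries each and deposited 1 table of FPKM values. The study's methods name GRCh38 with Ensembl release 91. The submitters' processing notes list Trimmomatic 0.27, FastQC 0.10.1 and TopHat2 2.0.8 without a role, and the counting program and its strand setting are not given in the sources used here. All 12 columns were used, each matched to its library by name.

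The 35 genes, their branches and the further pathway lists were chosen with earlier results of these data known. limma 3.58.1 in R 4.3.3 (lmFit and eBayes, no block) was run on log2(FPKM + 1) for every gene that averaged 1 FPKM or more, each resistant line against its parental line, and as an interaction over all 12 libraries. P values were adjusted over all genes tested by the Benjamini-Hochberg method, and SDE required this p below 0.05 together with an absolute log2FC above 1. SD is over the 3 libraries of a group, and SE is that of the log2FC from limma, with variance moderated by eBayes. Full values were given for genes SDE in either pair or in the interaction and for HSPA5, HSP90B1, HERPUD1, XBP1, ATF4, DDIT3, ASNS, TRIB3 and CHAC1, and from each further list the 3 largest SDE changes per pair were named.

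Implied depth came from low values of single-exon genes, of which 96.2% to 97.8% were whole fragments within 0.05. It is an inference, and low genes are least precise. Exon length, GC content and overlaps came from GENCODE 29, which held 57980 of the 58302 genes. Length was that of the joined exons, and GC content that of the longest transcript of each gene. Promoters were RefSeq's (GRCh38.p14). The script was tested on simulated data. Replicate numbers did not pair the libraries. Alternatives were other scalings, pseudocount and filters, protein-coding genes only, 1 fit over all libraries, a trended prior, the GC and length spline, a replicate block, and each library left out. Figures were drawn with matplotlib 3.10.9 in Python 3.11.15. Protein and quantitative PCR measurements were not analysed here.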

Additional observations from a re-analysis of the deposited data

Results flagged for a closer look

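The genes listed here had a response that differed between the CFPAC-1 pair and the BxPC-3 pair by the interaction test, at an adjusted p below 0.05 and an absolute difference of log2FC above 1 (CFPAC-1 pair minus BxPC-3 pair). Searched were the 35 genes and the genes of the further lists that had been named for the largest SDE changes, and 28 met both criteria, 8 of the 35 and 20 of the others. Of these others all but RNF139 (0.305) met them. They had been picked for large changes within a pair of these same libraries. Their number was thus largely set by that choice and is no test. Of the 28, 27 had the same direction after the GC correction and 8 were still past both criteria. The further lists as a whole held more such genes. By both criteria the response was higher in 23.6% and lower in 14.4% of all 12210 genes tested. It was higher and lower in 3 (13.0%) and 7 (30.4%) of 23 ATF4 targets, 9 (50%) and 1 (5.56%) of 18 synthetases, and 7 (41.2%) and 1 (5.88%) of 17 translocation genes. The counts were 5 (26.3%) and 5 (26.3%) of 19 folding genes, 2 (12.5%) and 1 (6.25%) of 16 degradation genes, and 4 (26.7%) and 1 (6.67%) of 15 sensors and factors.

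In the list of 35, the difference was 1.97 for HSP90B1, 1.32 for CANX, 1.78 for DNAJB9, 1.68 for DNAJC3, 1.94 for SEL1L, 1.45 for ATF6, -2.86 for TRIB3 and -2.53 for SESN2. TRIB3 and SESN2 rose in the BxPC-3 pair and fell in the CFPAC-1 pair, and their differences were -2.01 and -1.76 GC-corrected.

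Among ATF4 targets the difference was -2.704 for SLC6A9, -2.31 for GDF15, -2.26 for DDIT4, -1.14 for SHMT2, 1.97 for CEBPG and 1.71 for SLC38A2. Among synthetases and tRNA export it was 2.501 for RARS, 2.04 for XPOT and 2.04 for EPRS. In translocation it was 2.300 for SPCS3, 2.21 for SEC62 and 1.49 for TRAM1. In folding and degradation it was 1.76 for DNAJC10, 1.47 for ERO1B, 1.002 for ERO1A (-0.27 GC-corrected), 1.49 for EDEM3 and 1.12 for ERLEC1. Among sensors and factors it was 2.24 for EIF2AK2, 1.47 for MBTPS2 and 1.02 for PPP1R15B. What lies behind these differences was not tested.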

How the results depend on the processing

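The counts of genes of the list kept within 1.5 times of their value under most alternatives. With the replicate number as a block, 2 and 0 were SDE upward and downward in the BxPC-3 pair and 6 and 3 in the CFPAC-1 pair. Same-numbered libraries deviated together with correlations of only -0.052 to 0.096 in the BxPC-3 pair and -0.14 to 0.0001 in the CFPAC-1 pair, so the block pairs nothing and is given for completeness.

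The GC and length correction, alone and with the replicate block, brought the SDE upward count of the CFPAC-1 pair from 6 to 0 and the interaction count of higher response from 6 to 0, and raised the interaction count of lower response from 2 to 5 and, with the block, to 6. That last count was 8 with median-of-ratios and 8 with upper-quartile scaling, beside 2452 and 2889 of all 12210 genes. It was 2 to 5 with 1 library left out, being 4 or 5 without replicate 1 or 3 of BxPC-3 or of BxPC-3-GR, replicate 2 or 3 of CFPAC-1, or replicate 2 of CFPAC-1-GR. Over all genes the correction alone brought SDE upward in the CFPAC-1 pair from 2473 to 564 genes. It brought the interaction counts from 2885 to 1134 for higher and from 1758 to 1109 for lower response. SDE downward in the CFPAC-1 pair were 5 with a pseudocount of 0.1 and 7 with upper-quartile scaling, beside 1969 and 2646 of all 12051 genes. Downward at an adjusted p below 0.05 were 17 with upper-quartile scaling, beside 5669 of all genes. With 1 library left out, upward at an adjusted p below 0.05 in the BxPC-3 pair were 6 to 10, the lowest without BxPC-3 replicate 2.

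Of 2862 single values recomputed, 51 changed sign with the direction called before or after. With the correction, alone or with the block (PDIA4 alone only), these were, with the values of the correction alone, in the CFPAC-1 pair, PDIA3 -0.303, PDIA4 0.203, PDIA6 -0.199, P4HB 0.022, DNAJB11 -0.48, SYVN1 0.32, DERL1 -0.64, DERL2 -0.83, ATF4 0.41, CHAC1 0.14, DDIT4 0.19, DNAJC10 -0.096, GDF15 0.71 and MBTPS2 -0.054, and in the interaction CALR 0.33, PDIA3 -0.21, PDIA6 -0.298, DNAJB11 -0.56, SDF2L1 0.22, DERL2 -0.601, ERO1A -0.27 and RNF139 -0.21. With upper-quartile scaling CALR was -0.34, PDIA3 -0.043, PDIA6 -0.18 and DERL1 -0.0996 in the CFPAC-1 pair, and PDIA6 -0.32, PPP1R15A -0.41 and RNF139 -0.098 in the interaction. PPP1R15A was -0.26 there with median-of-ratios scaling. The cause of these shifts was not tested. Depth limits the lowest genes, CHAC1 and DERL3.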
